A study of Mus musculus with 48 samples.

Results

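The stearoyl-CoA desaturases of the mouse are encoded by 4 genes, Scd1, Scd2, Scd3 and Scd4, and their transcripts were followed here in liver and in the 2 fat depots sampled, brown fat (BAT) and epididymal white fat (eWAT). The 4 genes were taken by their Ensembl identifiers out of the 56748 identifiers in each count file. The mice were male littermates, either hepAGT+/+ (here WT) or hepAGT-/- (here KO), in which the gene for angiotensinogen, Agt, was deleted in hepatocytes. The driver of the deletion is not given in the sources used here. Every mouse, WT and KO alike, ate a Western diet with 21% milk fat and 0.2% cholesterol over 12 weeks. The cages stood either at 20 to 22 °C, called room temperature (RT), or at 30 °C. The warmer setting is thermoneutral (TN) for mice, which then need little extra heat production. Tissue, genotype and housing gave 12 groups of 4 libraries, 48 in all, and the labels call the samples of a group biological replicates. The animals' ages are not given in the sources used here.

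Stearoyl-CoA desaturases are membrane enzymes of the endoplasmic reticulum. They place a double bond in stearoyl-CoA and palmitoyl-CoA, which gives oleoyl-CoA and palmitoleoyl-CoA, and they draw the electrons for this from cytochrome b5 and its reductase. Oleoyl-CoA is a main building block of triglycerides, cholesteryl esters and membrane lipids, so the genes are usually read beside those of fatty acid synthesis. In the mouse, Scd1 is the form of liver and fat, Scd2 is best known from brain and from early life, Scd3 from skin glands and Scd4 from heart. Transcription of Scd1 in liver and fat is known to respond to SREBP-1c, liver X receptors, carbohydrate and insulin.

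The 4 genes lie side by side on chromosome 19, within 204.6 kb of GRCm38. With GENCODE M21 coordinates, Scd3 (ENSMUSG00000025202) takes 44203269 to 44244016 and Scd2 (ENSMUSG00000025203) 44293674 to 44306864. Scd4 (ENSMUSG00000050195) takes 44333092 to 44346743, and these 3 genes are on the plus strand. Scd1 (ENSMUSG00000037071) takes 44394455 to 44407879 on the minus strand. The merged exons of the gene models come to 4892 bases for Scd1, 5464 for Scd2, 3552 for Scd3 and 3768 for Scd4. The coding parts encode 355 residues for Scd1, 358 for Scd2, 359 for Scd3 and 353 for Scd4.

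Because these genes resemble each other, reads of the abundant Scd1 could be counted under a rare relative, so their coding sequences were compared. Coding bases of Scd1 were 91.5% identical with Scd3, 90.4% with Scd2 and 84.7% with Scd4. At the level of residues the identity with Scd1 was 89.0% for Scd3, 87.3% for Scd2 and 79.6% for Scd4. The region around the second of the 2 histidine boxes examined, a cluster of histidines that helps to hold the active-site iron, is shown because it separates the 4 genes. Capitals mark the bases that differ from Scd1, and the 45 bases start at coding position 865 of Scd1.
Scd1: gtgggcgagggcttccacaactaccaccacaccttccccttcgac
Scd2: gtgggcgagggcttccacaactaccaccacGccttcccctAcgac
Scd3: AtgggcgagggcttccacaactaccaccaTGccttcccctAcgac
Scd4: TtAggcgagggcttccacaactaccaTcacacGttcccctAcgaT
Over these 45 bases Scd2 had 2 differences from Scd1, Scd3 had 4 and Scd4 had 6.

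A stretch in which the genes can hardly be told apart is shown for the contrary reason. It covers 100 coding bases from position 463 of Scd1 and opens inside the first of the 2 histidine boxes examined.
Scd1: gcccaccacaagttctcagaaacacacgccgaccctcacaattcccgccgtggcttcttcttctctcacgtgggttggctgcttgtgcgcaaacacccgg
Scd2: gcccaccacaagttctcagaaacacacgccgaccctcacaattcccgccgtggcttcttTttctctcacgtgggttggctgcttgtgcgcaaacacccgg
Scd3: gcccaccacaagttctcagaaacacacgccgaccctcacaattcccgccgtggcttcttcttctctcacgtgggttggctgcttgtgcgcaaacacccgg
Scd4: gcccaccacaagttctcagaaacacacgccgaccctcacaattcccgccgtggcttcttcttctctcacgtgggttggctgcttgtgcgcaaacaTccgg
Scd3 was identical with Scd1 here, and Scd2 and Scd4 each differed at 1 base. Over the whole transcript, 2.64% of the 100-base words of Scd1 recurred in another member, against 0.896% for Scd2, 2.54% for Scd3 and 0.530% for Scd4. How reads that match several genes were treated is not given in the sources used here. Counts of Scd3 and Scd4, the 2 rare members, are therefore uncertain beside the large counts of Scd1. Scd3 also overlaps an antisense gene, AC125101.1, which had no counts in liver and reached at most 20 in BAT and 49 in eWAT. The strand setting of the counting is not given either, so reads of that pair cannot be told apart.

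Levels are given below as counts per 1e6 library counts (CPM) after TMM scaling over all 48 libraries, with the mean ± SD of each group of 4. Levels and sums of cell type markers are the exception and are CPM by library totals, without TMM scaling. Changes are log2 fold changes with standard error (SE) from edgeR's quasi-likelihood test, fitted per tissue on all genes. A gene was called when its Benjamini-Hochberg adjusted p over all genes of the tissue was under 0.05. Library totals had medians of 29.9, 30.7 and 34.5 M counts in liver, BAT and eWAT (range 23.7 M to 43.7 M; M, mega). In liver, Agt itself was 424 ± 88.4 CPM in WT and 194 ± 31.6 in KO at RT (SD, n = 4; log2 change -1.14, SE 0.18, edgeR adjusted p 0.00960). At TN it was 482 ± 99.3 and 193 ± 40.6 CPM (-1.29, SE 0.18, edgeR adjusted p 0.00113), so KO livers kept part of it, without overlap of the groups at either temperature. Summed hepatocyte markers were 54212 to 92537 CPM in every liver library, and Ucp1 and the other brown adipocyte markers summed to 2642 CPM or more in every BAT library against at most 21.3 in eWAT. In bulk tissue, fewer cells of a type and less RNA per cell cannot be told apart.

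Scd1 was among the most abundant transcripts of all 3 tissues. By mean CPM over the libraries of a tissue it ranked 1 of 56748 identifiers in eWAT, 2 in liver and 3 in BAT. Scd2 ranked 41 in eWAT, 235 in BAT and 8069 in liver, while Scd3 ranked 12268 or lower and Scd4 16520 or lower in each. Together the 4 genes took 6.37% to 9.10% of all counts of a library in eWAT, 1.63% to 7.75% in BAT and 1.52% to 5.67% in liver.

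Nearly all of these counts came from Scd1. Its share of the family's counts ran from 99.88% to 99.98% in liver, from 98.2% to 99.7% in BAT and from 96.0% to 99.1% in eWAT. Per kilobase of exon, which allows genes to be compared, the median level was 11712 CPM for Scd1 and 255 for Scd2 in eWAT. In BAT the medians per kilobase were 7758 for Scd1 and 56.9 for Scd2, and in liver 5999 and 2.09. Scd3 came to medians of 0.575 per kilobase in eWAT, 0.264 in BAT and 0.132 in liver. Scd4 had medians of 0.0544 in eWAT and 0.0399 in BAT, and its median in liver was 0.

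**Figure D1:**
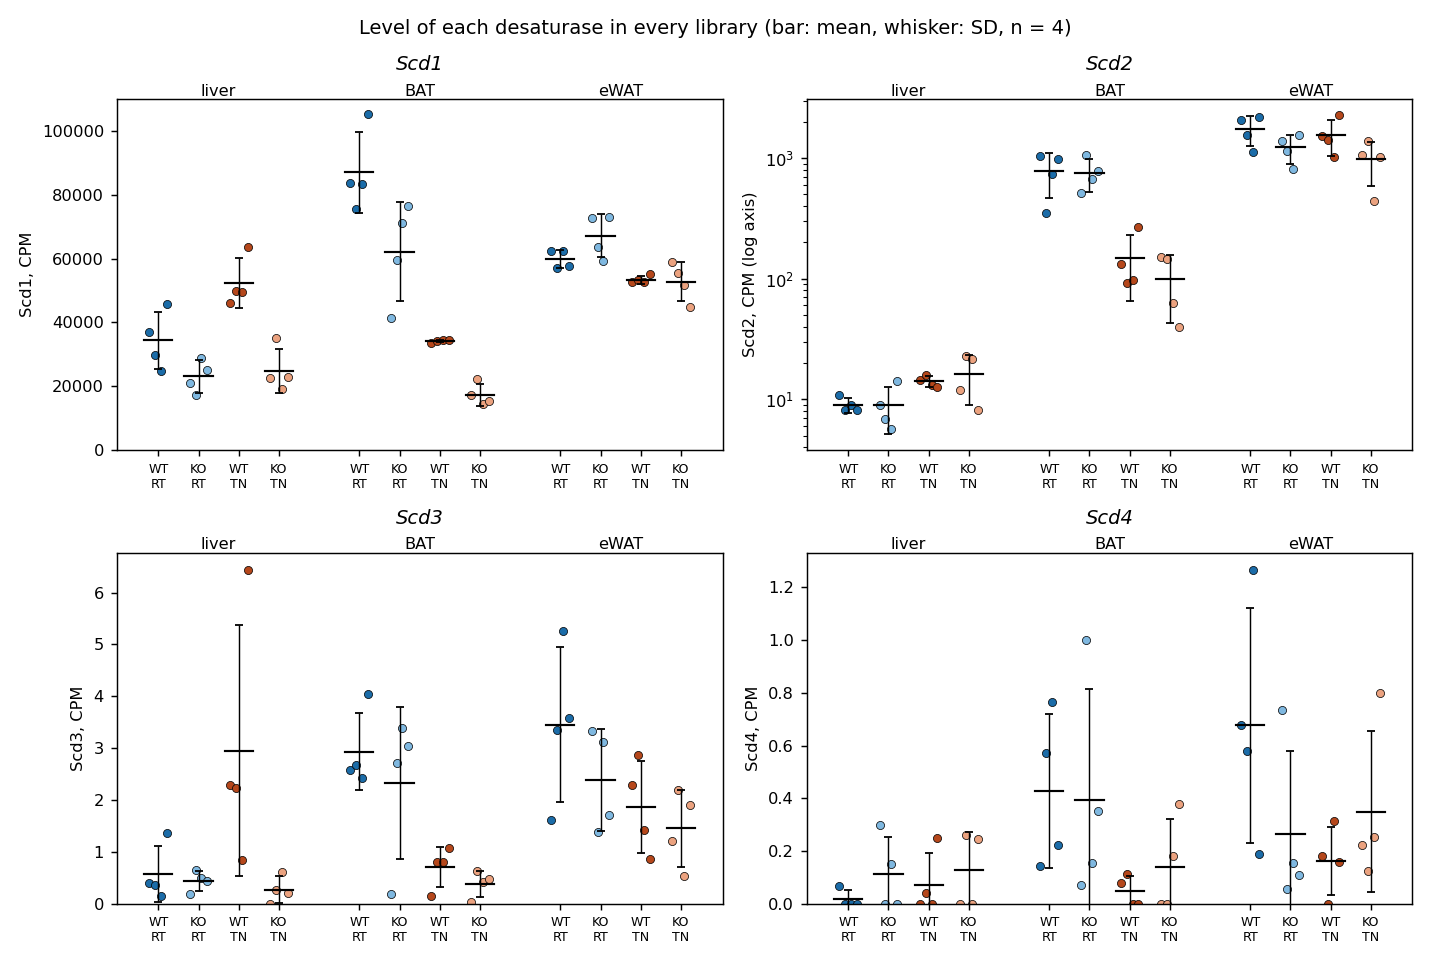
CPM (TMM-scaled, vertical axis, logarithmic for Scd2 only) of each desaturase in the 48 libraries, by tissue, genotype (WT, KO) and housing (RT, TN); points are libraries, bars the mean and whiskers the SD of 4. Scd1 in BAT runs from 105402 CPM in a WT library at RT to 14492 in a KO library at TN. Scd2 is lowest in liver (5.71 to 22.8 CPM), apart from BAT (39.6 to 1065) and eWAT (444 to 2276), which overlap.

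The tissues were compared in 1 fit over all 48 libraries, averaged over genotype and housing. Background in that fit was high: 68.6% of the 21910 genes tested were called between BAT and liver, 73.8% between eWAT and liver and 60.3% between BAT and eWAT. Scd1 was higher in eWAT than in liver (log2 difference 0.86, SE 0.09, edgeR adjusted p 5.88e-12), higher in BAT than in liver (0.41, SE 0.09, adjusted p 5.59e-05) and lower in BAT than in eWAT (-0.45, SE 0.09, adjusted p 1.64e-05). These are averages, and the order of the tissues was not the same in every group. In WT at RT, BAT (75641 to 105402 CPM) lay above eWAT (56919 to 62354), and in WT at TN, BAT (33630 to 34514) lay below liver (46202 to 63639). In KO at TN the BAT mean of 17348 CPM was also under the liver mean of 24840, with overlap. Scd2 differed far more, by 6.85 (SE 0.25) between eWAT and liver, 4.71 (SE 0.23) between BAT and liver and -2.14 (SE 0.21) between BAT and eWAT. Its highest adjusted p by edgeR among these was 9.69e-12. Scd3 was higher in eWAT than in liver (1.70, SE 0.38, adjusted p 9.67e-05) and lower in BAT than in eWAT (-0.89, SE 0.36, adjusted p 0.0312). That last call was lost when any 1 of 4 libraries was left out, BAT WT TN replicate 1 and eWAT KO TN replicate 4, WT RT replicate 15 and WT TN replicate 7, with adjusted p from 0.0512 to 0.0541. Scd3 between BAT and liver gave 0.81 (SE 0.38, adjusted p 0.0552) with edgeR and 0.78 (SE 0.36, adjusted p 0.0441) with DESeq2. Scd4 was called between eWAT and liver (2.17, SE 0.73, edgeR adjusted p 0.00720), on at most 52 counts a library, and was not called there with the replicate number as a block (adjusted p 0.0514). It did not pass the filter within liver and entered this fit through fat libraries only. The filter thus favoured lower Scd4 in liver in advance, and the call is no separate evidence of that direction. Library totals alone in place of TMM moved the median of all genes between eWAT and liver from 0.05 to 0.57, and relative to that median Scd1 stood at 0.82 under either scaling.

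In the order of its 12 group means, Scd1 was highest in BAT of WT mice at RT and lowest in BAT of KO mice at TN, so a single tissue held both ends. Below the highest group, the means of eWAT of KO at RT (67200 CPM), BAT of KO at RT (62167) and eWAT of WT at RT (59797) came from libraries that overlapped. The next 3 groups, eWAT of WT at TN, eWAT of KO at TN and liver of WT at TN, lay between 52312 and 53422 CPM and overlapped as well. For Scd2 the order followed tissue, with all 4 eWAT means above all BAT means and all BAT means above all liver means, and its eWAT means overlapped their neighbours.

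Scd1 in liver was lower in KO than in WT at thermoneutrality. At TN, the 4 WT livers had 46202, 49654, 49753 and 63639 CPM of Scd1. The 4 KO livers had 19070, 22473, 22842 and 34974 CPM. Every KO library lay below every WT library, as was so for 7.57% of genes. Means were 52312 ± 7730 and 24840 ± 6966 CPM (SD, n = 4), a log2 change of -1.04 (SE 0.21, edgeR adjusted p 0.0102), or 2.05-fold lower. In this comparison 3.18% of the 17594 genes tested were called, 1.85% as lower in KO. With library totals alone, 29.7% of the called genes were lower in KO, against 58.0% with TMM, and Scd1 remained called (-0.96, adjusted p 0.0164). It was called as well under the other 5 alternatives and without each of the 8 libraries, with adjusted p up to 0.0310. Marker lists of other cells also differed in level between these groups. The 5 lymph node and B cell markers summed to 6.92 to 12.3 CPM in KO and 3.58 to 6.62 in WT, and the 6 macrophage markers to 66.9 to 196 and 58.9 to 79.6, with overlap. The 6 brown adipocyte markers summed to 45.6 to 77.2 CPM in KO and 94.6 to 110 in WT. Over all liver libraries Elovl3 reached 207 CPM, against at most 26.6 for any other of these 6. Their sum in liver can thus rest largely on Elovl3 and does not measure brown adipocytes. The 6 skeletal muscle markers summed to 0.938 to 2.40 CPM in KO and 0.127 to 0.338 in WT, and hepatocyte markers overlapped (75479 to 92537 and 71768 to 90766). Their part in the lower Scd1 was not tested.

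At room temperature the livers overlapped. WT livers had 24902, 29733, 37071 and 45675 CPM of Scd1, and KO livers 17321, 20872, 25152 and 28962. The log2 change was -0.59 (SE 0.21, edgeR adjusted p 0.289), in a comparison in which 0.0853% of genes were called. From RT to TN, Scd1 in WT liver had a log2 change of 0.57 (SE 0.21, adjusted p 0.465), with the lowest TN library just above the highest RT library. Groups separated in that direction for 2.65% of genes, and 0.0227% of genes were called. In KO liver the change with temperature was 0.12 (SE 0.21, adjusted p 0.925), with 0.114% of genes called. The interaction of genotype and temperature was -0.45 (SE 0.29, adjusted p 0.793). By edgeR no gene was called for that interaction in liver, 1290 genes had an unadjusted p under 0.05, and DESeq2 called 17.

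In BAT, Scd1 fell with thermoneutral housing in both genotypes. The 4 WT libraries at RT had 75641, 83252, 83688 and 105402 CPM, and the 4 at TN had 33630, 34226, 34353 and 34514. The TN libraries lay close together on this scale and far below all RT libraries, although as a share of library counts, without scaling, they ran from 3.17% to 4.27%. The log2 change was -1.35 (SE 0.21, edgeR adjusted p 0.000155), or 2.56-fold lower. KO libraries had 41386, 59638, 71028 and 76614 CPM at RT, and 14492, 15397, 17362 and 22141 at TN. Again no TN library reached an RT library, and the log2 change was -1.87 (SE 0.22, edgeR adjusted p 2.06e-05), or 3.65-fold lower. Background was large here: 32.5% of the 18032 genes tested were called with temperature in WT and 15.2% in KO, 16.7% and 8.52% as lower at TN. Groups separated in that direction for 13.9% of genes in WT and 11% in KO.

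The scaling mattered in BAT. TMM factors there ran from 0.705 to 0.914 in WT at RT and from 0.943 to 1.25 in WT at TN. With library totals alone, chosen after seeing the data, the changes of Scd1 with temperature were -0.80 (adjusted p 0.00403) in WT and -1.50 (adjusted p 8.03e-05) in KO. The same choice shifted the median of all genes in WT from 0.11 to 0.65, so that relative to the median Scd1 stood at -1.47 and -1.45. In KO it stood at -1.91 and -1.92. It also moved the share of lower genes among those called in WT from 51.2% to 12.8%, and in KO from 56.2% to 13.9%.

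Between genotypes in BAT, Scd1 was not called. At RT the means were 86996 ± 12815 CPM in WT and 62167 ± 15551 in KO (SD, n = 4), a log2 change of -0.47 (SE 0.21, edgeR adjusted p 0.233), with 0.0887% of genes called. At TN they were 34181 ± 386 and 17348 ± 3413 CPM, and all 4 KO libraries lay below all 4 WT libraries, as was so for 1.72% of genes. The log2 change at TN was -0.98 (SE 0.21), with an unadjusted edgeR p of 0.000198 and an adjusted p of 0.493. By edgeR no gene reached the threshold in that comparison (0% called), 945 genes had an unadjusted p under 0.05, and DESeq2 called 20, Scd1 among them with an adjusted p of 0.000581. The interaction was -0.51 (SE 0.30, adjusted p 0.542), where edgeR called no gene, 1832 had an unadjusted p under 0.05 and DESeq2 called 21.

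Transcripts of other tissues varied in the BAT libraries. The 6 skeletal muscle markers summed to 1.19 to 336 CPM in WT at RT, 2.18 to 3213 in KO at RT, 7.52 to 4667 in WT at TN and 1.32 to 6294 in KO at TN. In WT at TN, 2 libraries had 4291 and 4667 CPM of muscle markers and the other two 9.63 and 7.52, while Scd1 was 33630 to 34514 CPM in all 4. Hepatocyte markers had medians of 74.2 and 130 CPM at RT and 577 and 763 at TN in WT and KO. Macrophage markers had medians of 22.6 CPM at RT and 102 at TN in WT, and 21.6 and 65.7 in KO. Brown adipocyte markers, among them Elovl3, had medians of 9361 CPM at RT and 3359 at TN in WT, and 8668 and 4236 in KO. These marker sums are without TMM scaling, unlike the Scd1 levels beside them, and TMM factors in BAT differed between temperatures. The markers' part in the changes of Scd1 was not tested. The KO library at RT with the least Scd1, replicate 9, also had the largest share of mitochondrially encoded counts among BAT libraries, 33.9%.

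In eWAT, Scd1 was not called in any comparison. WT libraries had 56919, 57671, 62242 and 62354 CPM at RT, and 52551, 52614, 53301 and 55221 at TN. The groups did not overlap, but the log2 change was only -0.17 (SE 0.14, edgeR adjusted p 0.941). Of the genes tested, 1.72% separated in that direction and 0% were called by edgeR, with 1324 at an unadjusted p under 0.05 and 100 called by DESeq2. KO libraries had 59314, 63595, 72797 and 73092 CPM at RT, and 44732, 51589, 55628 and 58892 at TN. These did not overlap either, as was so for 3.11% of genes in that direction, and the log2 change was -0.37 (SE 0.14, edgeR adjusted p 0.176, DESeq2 adjusted p 0.00119), with 1.74% of genes called by edgeR. KO and WT overlapped at both temperatures, with changes of 0.18 (SE 0.14, adjusted p 0.584) at RT and -0.02 (SE 0.14, adjusted p 0.966) at TN. The background there was 4.34% and 0.586% of genes called. The interaction was -0.20 (SE 0.20, adjusted p 0.834), where edgeR called no gene, 1439 had an unadjusted p under 0.05 and DESeq2 called 12.

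**Figure D2:**
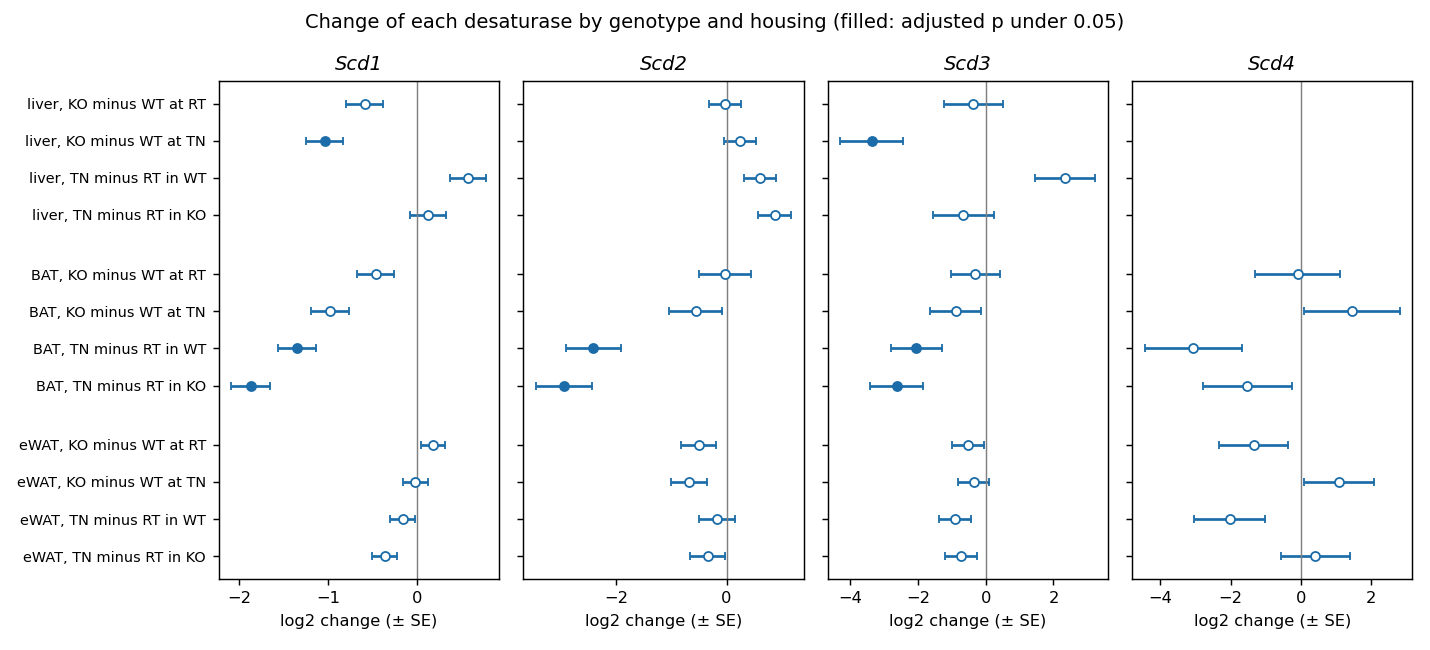
Log2 change ± SE (horizontal axis) of each desaturase in the 4 comparisons of each tissue, from edgeR fits of 16 libraries per tissue; filled points have an adjusted p under 0.05. Filled points occur in BAT with temperature and in liver between genotypes at TN, and none in eWAT; Scd4 was not tested in liver.

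Whether the effects on Scd1 differed among the 3 tissues was tested over all 48 libraries with a quasi-likelihood F test. The change with temperature differed among tissues in WT (F 31.6, edgeR adjusted p 1.52e-06) and in KO (F 33.8, adjusted p 2.84e-06), where 15% and 4.06% of genes were called. The genotype effect at TN also differed (F 11.2, adjusted p 0.0254, 0.904% of genes called). That last call was lost when the replicate number, which is shared by samples of different tissues, was entered as a block (adjusted p 0.355). At RT the genotype effect was not called as different (F 5.43, adjusted p 0.116, 2.06% of genes called). For Scd2 the change with temperature differed among tissues as well, with F 15.1 and adjusted p 0.000549 in WT and F 22.2 and adjusted p 0.000153 in KO. For Scd3 it differed in WT (F 9.18, adjusted p 0.00680) and was not called in KO (F 2.13, adjusted p 0.411).

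Scd2 also fell in BAT at thermoneutrality, in both genotypes. WT libraries had 354, 733, 982 and 1046 CPM at RT and 91.4, 97.3, 133 and 268 at TN. KO libraries had 511, 671, 777 and 1065 CPM at RT and 39.6, 62.6, 147 and 151 at TN. In both genotypes the TN libraries lay below all RT libraries, as was so for 13.9% of genes in WT and 11% in KO. Of all genes tested, 16.7% in WT and 8.52% in KO were called as lower at TN. The log2 change was -2.41 (SE 0.50, edgeR adjusted p 0.00215), or 5.31-fold lower, in WT and -2.95 (SE 0.51, adjusted p 0.00152), or 7.71-fold lower, in KO. Relative to the median of all genes these were -2.52 and -2.99. Between genotypes Scd2 in BAT had changes of -0.02 (SE 0.47, adjusted p 0.985) at RT and -0.56 (SE 0.47, adjusted p 0.999) at TN, neither called by edgeR.

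Scd2 in liver was scarce, at 5.71 to 22.8 CPM, and was not called in any comparison. In WT the libraries had 8.14, 8.14, 8.99 and 10.9 CPM at RT and 12.7, 13.2, 14.5 and 15.8 at TN. These groups did not overlap, as was so for 2.65% of genes in that direction, while the log2 change of 0.60 (SE 0.29) had an edgeR adjusted p of 0.688. KO livers had 5.71 to 14.3 CPM at RT and 8.19 to 22.8 at TN, with a change of 0.87 (SE 0.29, adjusted p 0.238). Between genotypes at TN, where Scd1 fell, the change of Scd2 was 0.24 (SE 0.29, adjusted p 0.746).

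Scd2 in eWAT ranged more widely between libraries than Scd1 did. WT libraries had 1132, 1559, 2085 and 2213 CPM at RT and 1030, 1401, 1516 and 2276 at TN. KO libraries had 813, 1138, 1399 and 1552 CPM at RT and 444, 1021, 1057 and 1385 at TN. The KO groups were lower on average at both temperatures but overlapped WT. The log2 changes were -0.51 (SE 0.32, edgeR adjusted p 0.469) at RT and -0.68 (SE 0.32, adjusted p 0.369) at TN, neither called. With temperature they were -0.17 (SE 0.32, adjusted p 0.991) in WT and -0.34 (SE 0.32, adjusted p 0.647) in KO. One eWAT library, WT at RT replicate 18, had 879 CPM of epididymis markers against at most 12.4 in the other eWAT libraries, and its Scd2 was the highest of its group. At RT, macrophage markers summed to 144 to 194 CPM in KO and 207 to 333 in WT, and sebaceous cell markers to 16.0 to 21.5 and 24.5 to 38.6. The other marker lists overlapped there, adipocyte markers among them. At TN macrophage markers overlapped (253 to 320 in KO, 279 to 579 in WT). Hepatocyte markers ran from 26.7 to 4752 CPM over the eWAT libraries. The part of these markers in Scd2 was not tested.

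Because both members fell in BAT, the share of Scd2 in the family's counts was examined, a ratio within a library on which depth and scaling have no bearing. In liver the mean share was 0.0277% ± 0.00755 in WT and 0.0398% ± 0.0153 in KO at RT (SD, n = 4), and 0.0274% ± 0.00554 and 0.0669% ± 0.0333 at TN. In BAT it was 0.874% ± 0.316 in WT and 1.23% ± 0.371 in KO at RT, and 0.429% ± 0.237 and 0.552% ± 0.264 at TN. In eWAT it was 2.85% ± 0.822 in WT and 1.77% ± 0.308 in KO at RT, and 2.81% ± 0.850 and 1.82% ± 0.702 at TN. The share was thus lower at TN than at RT in BAT, lower in KO than in WT in eWAT, and higher in KO in liver, by group means, and none of these differences passed the adjusted threshold. In 12 comparisons tested with a two-sided exact permutation test, the smallest p was 0.0286, the least that 4 against 4 can give. It was reached in liver between genotypes at TN and in BAT of KO between temperatures, and both had an adjusted p of 0.171 over the 12, the smallest of them. As 1 comparison alone could not pass that adjustment with 4 against 4 libraries, the tests do not show that the share was unchanged. In BAT, counting error was small beside the spread of libraries: the BAT library with the fewest Scd2 counts, 1255, had a share of 0.257% with an exact 95% binomial interval of 0.243% to 0.271%, which covers counting error only. Liver libraries had only 151 to 670 Scd2 counts, and counting error was larger there relative to the spread. Replicate 1 of WT at TN had 0.0314% with an interval of 0.0281% to 0.0350%, beside a group SD of 0.00554.

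**Figure D3:**
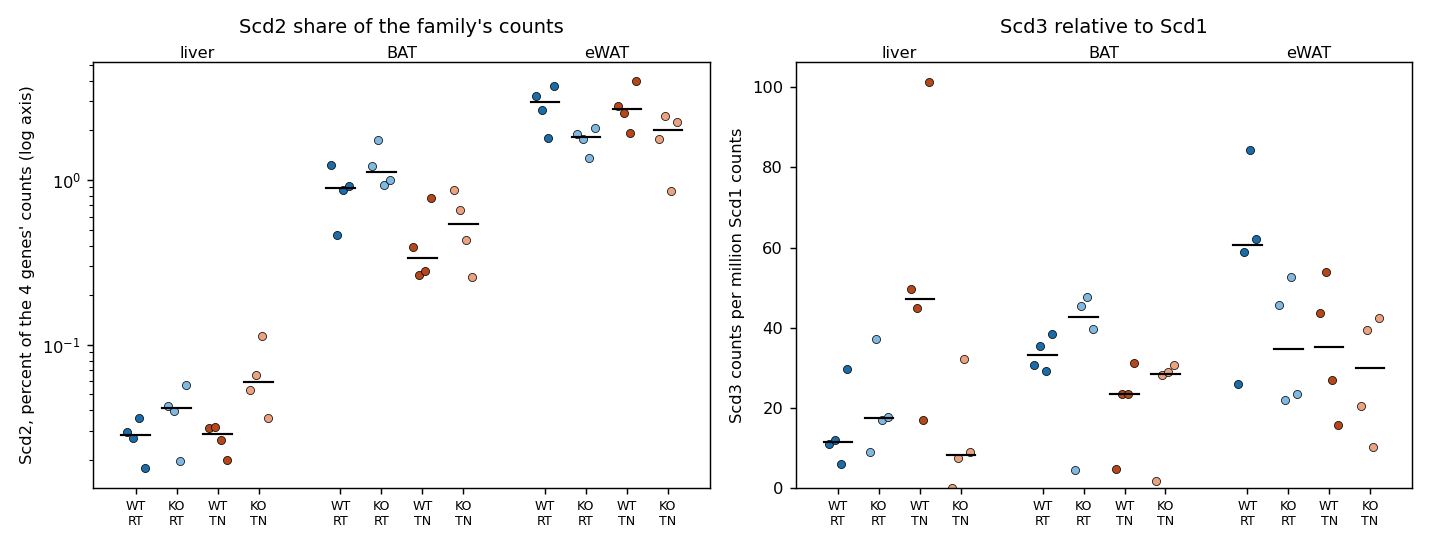
Left, Scd2 as a percentage of the counts of the 4 genes (logarithmic axis), and right, Scd3 counts scaled to 1e6 Scd1 counts, in each library by tissue, genotype and housing; horizontal bars are medians of 4 libraries. The Scd2 share is at most 0.113% in the liver libraries and 0.257% to 3.96% in fat, whereas the Scd3 ratio of the tissues overlaps.

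Scd3 was counted in small numbers everywhere, from 0 to 181 counts a library in liver, 1 to 87 in BAT and 21 to 216 in eWAT. In liver it passed the filter on low counts, with mean counts of 78.5 in WT at TN and 12.5 in WT at RT. KO livers had means of 11.25 counts at RT and 7.75 at TN, so values outside WT at TN rest on few counts. The WT group at TN had 0.835, 2.23, 2.29 and 6.44 CPM, the last from 181 counts in replicate 24. That replicate also had the most Scd1 of the liver libraries. KO livers at TN had 0, 0.206, 0.260 and 0.614 CPM, WT livers at RT 0.146 to 1.36 and KO livers at RT 0.186 to 0.642. The log2 change between genotypes at TN was -3.36 (SE 0.92, edgeR adjusted p 0.0483). It was no longer called under RLE scaling (adjusted p 0.0504) or when any 1 of 6 of the 8 libraries was left out (WT replicates 1, 6 and 24, KO replicates 2, 4 and 22), with an adjusted p of up to 0.191 without WT replicate 24. The other 3 changes of Scd3 in liver were not called, with edgeR adjusted p of 0.487 or more.

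In BAT, Scd3 was lower at TN in both genotypes. WT libraries had 2.43, 2.57, 2.68 and 4.04 CPM at RT and 0.155, 0.801, 0.806 and 1.07 at TN, without overlap. Groups separated in that direction for 13.9% of genes in WT, and 16.7% of genes in WT and 8.52% in KO were called as lower. KO libraries had 0.181, 2.71, 3.05 and 3.39 CPM at RT and 0.0275, 0.419, 0.473 and 0.624 at TN. In KO the groups overlapped through RT replicate 9, with 5 counts. The log2 changes were -2.04 (SE 0.75, edgeR adjusted p 0.0451) in WT and -2.62 (SE 0.78, adjusted p 0.0282) in KO. The call in WT was lost when any 1 of 7 of its 8 libraries was left out, all but TN replicate 24, the highest adjusted p being 0.117 without TN replicate 1. It was lost with library totals alone too (-1.46, adjusted p 0.130). The call in KO was lost when RT replicate 10, 14 or 19 or TN replicate 2, 4 or 5 was left out, the highest being 0.0711 without TN replicate 4. The 6 sebaceous cell markers, of which Awat1 was at 0 in every BAT library, summed to 18.5 to 21.9 CPM at RT and 10.5 to 18.6 at TN in WT. In KO they summed to 15.5 to 21.0 CPM at RT and 5.86 to 15.2 at TN, and their part in the change of Scd3 was not tested. In eWAT, Scd3 means ran from 3.46 ± 1.49 CPM in WT at RT to 1.45 ± 0.742 in KO at TN (SD, n = 4), and no change was called, the smallest adjusted p by edgeR being 0.450.

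Scaled to 1e6 counts of Scd1 in each library, Scd3 came to 0 to 101 counts in liver, 1.58 to 47.7 in BAT and 10.3 to 84.5 in eWAT, with medians of 16.9, 29.9 and 40.9 in that order. The log2 ratio of Scd3 to Scd1, with 0.5 added to each count, was compared between groups by two-sided exact permutation tests in 12 comparisons. The smallest p was 0.0571 and the smallest adjusted p over the 12 was 0.343. With 4 against 4 libraries 1 comparison alone could not pass that adjustment, so the test does not show that Scd3 and Scd1 changed alike. Within BAT at RT, Pearson's r of log2 CPM between Scd1 and Scd3 was 0.85 over 8 libraries, and at TN 0.41. In liver it was 0.50 at RT and 0.79 at TN, and in eWAT -0.34 and -0.20. For Scd1 and Scd2 it was 0.36 and 0.55 in BAT, 0.13 and -0.01 in liver, and -0.12 and 0.23 in eWAT. Each r rests on 8 libraries of both genotypes that also share their library's depth and scaling, and is given as a description.

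Scd4 had no counts in 9 of 16 liver libraries, 4 of 16 BAT libraries and 1 of 16 eWAT libraries, and at most 8, 28 and 52 counts in any. It did not pass the filter in liver. With 3 counts as the limit that a count of 0 allows, a liver library at 0 could still hold up to 0.127 CPM, by library totals without TMM scaling. The highest group mean was 0.678 ± 0.446 CPM (SD, n = 4) in eWAT of WT at RT. No change of Scd4 was called in BAT or eWAT. The lowest edgeR adjusted p was 0.0983, for -3.07 (SE 1.38) with temperature in WT BAT, where RT libraries had 4, 4, 16 and 18 counts and TN libraries 0, 0, 2 and 4.

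The genes around the desaturase reaction were followed in 5 lists with 46 genes, of which 45 were tested in each tissue. The 10 genes of substrate supply, which make and elongate saturated acyl-CoA, were lower in BAT at TN in 10 of 10 cases in both genotypes, beside 16.7% of all genes in WT and 8.52% in KO. Their median log2 change was -2.88 in WT and -2.69 in KO, against 0.11 and 0.04 over all genes, and all 10 were called under library totals alone too. Fasn, the fatty acid synthase, fell from 18933 ± 5440 to 1373 ± 1202 CPM in WT (log2 change -3.79, SE 0.62, edgeR adjusted p 0.000410). Elovl6, which elongates palmitate to stearate, fell from 1398 ± 301 to 110 ± 29.9 CPM (-3.67, SE 0.27, adjusted p 1.37e-07). Acly, which makes cytosolic acetyl-CoA, had a change of -3.32 (SE 0.64, adjusted p 0.00153), and Elovl3, an elongase of brown fat that is also in the brown adipocyte marker list, one of -7.22 (SE 0.99, adjusted p 0.000196). In KO, Elovl3 changed by -8.66 (SE 1.06, adjusted p 0.000215), Elovl6 by -3.61 (SE 0.27, adjusted p 2.13e-07), Fasn by -3.27 (SE 0.60, adjusted p 0.00238) and Me1, malic enzyme, by -2.97 (SE 0.29, adjusted p 4.18e-06).

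Electron supply was less uniform. Of its 5 genes, 2 were lower in WT BAT at TN and 1 in KO, where 16.7% and 8.52% of all genes were. With library totals alone 1 was lower and 2 higher in WT, and 1 lower and 1 higher in KO, and the median moved from -0.23 to 0.32 in WT and from -0.23 to 0.15 in KO. In KO 1 was higher and 1 lower under the other 5 alternatives as well. Cyb5b, the outer mitochondrial membrane form of cytochrome b5, changed by -1.81 (SE 0.24, edgeR adjusted p 4.65e-05) in WT and -1.41 (SE 0.24, adjusted p 0.000757) in KO. Cyb5r3, the reductase, changed by -0.67 (SE 0.14, adjusted p 0.00123) in WT, and by -0.11 (adjusted p 0.523) with library totals alone.

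Of the 12 regulators, 5 were lower in WT BAT at TN and 3 in KO, and none was higher, beside 16.7% and 8.52% of all genes lower. With library totals alone 1 was lower and 2 were higher in WT, and 1 was lower in KO. Insig1, a sterol sensor that holds SREBPs in the endoplasmic reticulum and is itself a target of them, changed by -2.08 (SE 0.22, edgeR adjusted p 5.39e-06) in WT and -2.47 (SE 0.23, adjusted p 1.99e-06) in KO. Mlxipl, which encodes the carbohydrate sensor ChREBP, changed by -0.69 (SE 0.24, adjusted p 0.0307) and -1.06 (SE 0.24, adjusted p 0.00536). Srebf1, which encodes SREBP-1, changed by -0.55 (SE 0.19, adjusted p 0.0363) in WT, and Pparg, the adipogenic nuclear receptor, by -0.54 (SE 0.17, adjusted p 0.0244). Nr1h3, which encodes LXR alpha, changed by -0.57 (SE 0.16, adjusted p 0.0179) in KO. With library totals alone Mlxipl, Srebf1, Pparg and Nr1h3 were not called, and the change of Pparg in WT was 0.02. In WT the calls of Mlxipl and Pparg were each lost on leaving out any 1 of 4 libraries and that of Srebf1 on leaving out any 1 of 5, with adjusted p up to 0.128, 0.0983 and 0.147. The call of Nr1h3 in KO was lost without RT replicate 10, TN replicate 2 or TN replicate 4, with adjusted p up to 0.0821.

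Among 12 users of oleoyl-CoA, 7 were lower and 1 higher in WT BAT at TN, and 6 were lower in KO, beside the same 16.7% and 8.52% of all genes. Scaled by library totals alone, 4 were lower and 1 higher in WT, and 4 lower and 2 higher in KO. Acsl5, an acyl-CoA synthetase, changed by -3.50 (SE 0.22, edgeR adjusted p 2.37e-08) in WT and -3.43 (SE 0.22, adjusted p 3.21e-08) in KO. Agpat2, which acylates lysophosphatidate on the way to triglyceride, changed by -2.48 (SE 0.32, adjusted p 2.87e-05) and -2.18 (SE 0.31, adjusted p 0.000186). Acsl3 changed by -1.68 and -1.96, and Mogat1, a monoacylglycerol acyltransferase, by -2.19 and -2.24, all 4 of them called. Of the 6 other desaturases tested, 2 were higher and 0 lower in each genotype, and 4 were higher and 0 lower with library totals alone. Of the 18032 genes tested, 2864 were higher in WT and 1198 in KO. Fads1 and Fads2, which desaturate polyunsaturated fatty acids, rose by 1.05 (SE 0.30, adjusted p 0.0126) and 1.30 (SE 0.38, adjusted p 0.0149) in WT, the call of Fads2 being lost without RT replicate 18 (adjusted p 0.0512). In KO, Fads1 rose by 1.05 (SE 0.30, adjusted p 0.0229) and Fads3 by 1.56 (SE 0.49, adjusted p 0.0453), calls that were lost on leaving out any 1 of 4 and 7 libraries. The WT and KO comparisons used different libraries.

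**Figure D4:**
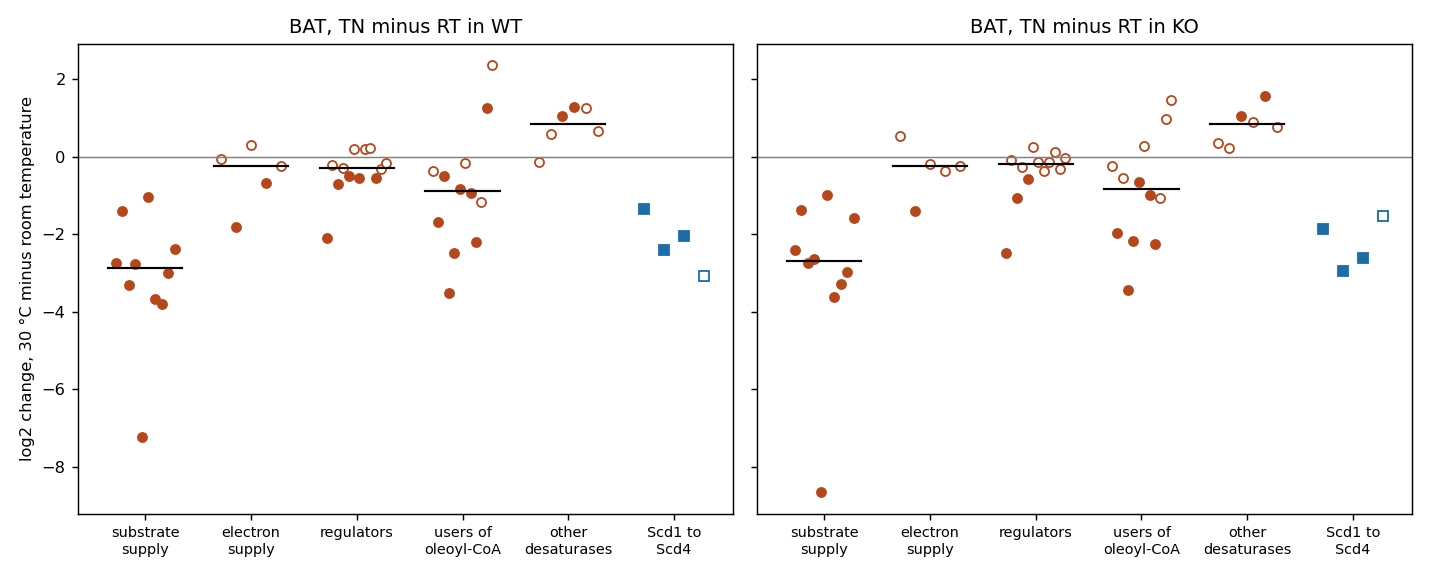
Log2 change of TN minus RT in BAT (vertical axis) for each gene of the 5 lists and for Scd1 to Scd4 (squares, in that order), in WT on the left and KO on the right; filled points have an edgeR adjusted p under 0.05 and horizontal bars are list medians. All 10 genes of substrate supply are filled and below 0 in both genotypes, with medians of -2.88 and -2.69.

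In liver at TN, where Scd1 was lower in KO, 5 of the 45 genes were called, all lower in KO, in a comparison with 3.18% of all genes called and 1.85% lower. The list median was -0.39, against 0.05 over all genes. Elovl5, an elongase, changed by -0.84 (SE 0.18, edgeR adjusted p 0.0146) and Agpat2 by -0.67 (SE 0.14, adjusted p 0.0115). Cyb5r3 changed by -0.56 (SE 0.14, adjusted p 0.0259), Acsl1, an acyl-CoA synthetase, by -0.74 (SE 0.18, adjusted p 0.0266) and Pparg by -1.24 (SE 0.32, adjusted p 0.0476). DESeq2 called 8 of the 45 as lower. Library totals alone left 3, with Pparg (adjusted p 0.0515) and Cyb5r3 (adjusted p 0.0617) not called. The call of Pparg was lost on leaving out any 1 of 7 libraries and that of Acsl1 on leaving out any 1 of 6. That of Cyb5r3 was lost without KO replicate 4 or 22 or WT replicate 7 (adjusted p up to 0.0787) and that of Elovl5 without WT replicate 7 (0.0572). Pparg was not called under RLE scaling (0.0531) or without a filter (0.0992) either, nor Acsl1 with only the 8 libraries compared (0.0644). At RT none of the 45 was called by edgeR and 2 by DESeq2, and 1799 of all genes had an unadjusted p under 0.05. With temperature in WT liver edgeR called none and DESeq2 1 of the 45, and 1276 of all genes had an unadjusted p under 0.05. In KO liver 1 was called, Soat1, which esterifies cholesterol with oleoyl-CoA and which rose by 1.69 (SE 0.32, edgeR adjusted p 0.0354), a call lost on leaving out any 1 of 5 libraries.

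In eWAT at RT, 3 of the 45 genes were higher and 3 lower in KO, where 4.34% of all genes were called, 228 higher and 593 lower of 18933. Fads1 rose by 1.16 (SE 0.20, edgeR adjusted p 0.00445), Mogat1 by 0.94 (SE 0.23, adjusted p 0.0263) and Acaca, acetyl-CoA carboxylase, by 0.72 (SE 0.19, adjusted p 0.0407). Mogat2 changed by -1.33 (SE 0.32, adjusted p 0.0255), Soat1 by -0.87 (SE 0.23, adjusted p 0.0426) and Fads3 by -0.58 (SE 0.11, adjusted p 0.00872). The calls of Mogat1, Acaca, Mogat2 and Soat1 were lost on leaving out any 1 of 5, 5, 7 and 7 libraries. No gene of the lists was called by edgeR with TMM scaling and the filter of low counts in the other 3 comparisons of eWAT, nor in BAT between genotypes. In eWAT of KO with temperature, 2 were lower under RLE scaling and 3 under the 1 CPM filter. DESeq2 called 6 in eWAT between genotypes at TN, 9 with temperature in KO and 0 in WT, 5 in BAT between genotypes at RT and 0 at TN.

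The genes whose levels followed a desaturase most closely over the 16 libraries of a tissue were named by Pearson's r of log2 CPM. In BAT the 16 libraries include the difference between temperatures, which enters every r. For Scd1 they were Tulp4 (0.96), Aldh1a7 (0.95) and Socs5 (0.94) in BAT, and Aldh1a7 (0.88), Tmem135 (0.88) and Cyb5r3 (0.88) in liver. In eWAT they were Egln1 (0.89), Lrpprc (0.88) and mt-Nd4 (0.87). For Scd2 they were Ppp2r5b (0.98), Sqle (0.97) and Insig1 (0.97) in BAT, Cyb5b (0.94), Cyp51 (0.93) and Vac14 (0.92) in eWAT, and Zfp608 (0.84) and Mcm6 (0.83) in liver. Aldh1a7, an aldehyde dehydrogenase, stood in the list of Scd1 in both liver and BAT, and no other gene was among the 3 closest to 1 member in more than 1 tissue. Sqle and Cyp51 encode enzymes of cholesterol synthesis.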

How the data were processed

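Raw counts per gene were deposited by the authors for each of 48 libraries. The submitters' processing notes name fastp, STAR 2.6.1d, featureCounts 1.5.0-p3 and GRCm38 (mm10), without order or settings. Per the labels, RNA came from snap-frozen tissue and libraries were read paired-end. The members and gene lists were chosen with earlier results of these data known. Symbols matched 52073 of 56748 identifiers (91.8%). Each tissue was fitted over its 16 libraries with edgeR 4.0.16 in R 4.3.3 (TMM, genes kept by filterByExpr at a minimum of 10 counts, robust quasi-likelihood tests, 2-sided, 1 mean per group), and p was adjusted by Benjamini-Hochberg within a comparison. Tissues were compared in a fit of all 48 libraries, and SE is the log2 change divided by the square root of F. Shares and ratios were tested by exact permutation with scipy 1.17.1. The fit was tested on simulated data. Up to 4 called genes per list and comparison, those with the largest change, and the 3 genes closest to a member (mean of at least 1 CPM) are named, apart from 1 that is not reported here. Alternatives were RLE scaling, no scaling, 2 other filters, DESeq2 1.42.0, fits of 8 libraries, omission of each library in turn, and a replicate block. Coding sequences came from GRCm38 with GENCODE M21. RefSeq promoters were found for 2 members and are not shown.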

Additional observations from a re-analysis of the deposited data

Results flagged for a closer look

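In 4 groups of 4 libraries, 1 library stood apart from the other 3 by Dixon's criterion at 95%, which chance meets in about 1 in 20 groups of normally distributed values. Scd3 in BAT of WT mice at RT was 4.04 CPM in replicate 18 and 2.43 to 2.68 in the others. The remaining cases were Scd4 at very low counts, for which that rate need not hold. It was 0.734 CPM in replicate 9 of eWAT of KO at RT against 0.0544 to 0.153 in the others. In liver it was 0.0671 CPM, from 2 counts, in replicate 11 of WT at RT against 0 in the others, and 0.249 CPM, from 7 counts, in replicate 24 of WT at TN against 0 to 0.0406. The cause was not tested.

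Effects that differed among the 3 tissues by the edgeR F test are flagged too. For the change with temperature the adjusted p was 1.52e-06 in WT and 2.84e-06 in KO for Scd1, 0.000549 and 0.000153 for Scd2, and 0.00680 in WT for Scd3. For the genotype effect at TN it was 0.0254 for Scd1, a call that the replicate block ended (F 6.19, adjusted p 0.355).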

How the results depend on the processing

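Of 1544 values of the members' tests recomputed under alternatives, for 83 results, 1473 kept their direction and their side of the threshold. With library totals alone, an alternative chosen after seeing the data, Scd2 between genotypes at RT was 0.026 in liver and 0.094 in BAT, Scd4 there 0.11 and Scd1 in eWAT at TN 0.024, all reversed and none called. The same setting gave Scd3 -3.30 (adjusted p 0.0518) in liver between genotypes at TN, -1.46 (0.130) in BAT with temperature in WT and 0.93 (0.0299) between BAT and liver, and Pparg 0.017 in BAT with temperature in WT. RLE scaling gave Scd3 -3.34 (0.0504) in liver at TN, and no filter gave it -2.02 (0.0563) in BAT of WT. With only the 8 libraries compared, Scd3 was -2.60 (0.0773) in BAT of KO with temperature and Scd2 0.00798 in BAT between genotypes at RT. DESeq2 gave Scd1 -0.98 (0.000581) in BAT at TN and -0.38 (0.00119) in eWAT of KO with temperature, and Scd3 0.78 (0.0441) between BAT and liver. For these the cause was not tested. Leaving out 1 library at a time gave ranges, in liver, of -0.68 to 0.54 for Scd3 and -0.35 to 0.14 for Scd2 between genotypes at RT, -4.17 to -2.65 for Scd3 at TN and -0.095 to 0.24 for Scd1 with temperature in KO. In BAT between genotypes at RT they were -0.27 to 0.15 for Scd2, -0.54 to 0.079 for Scd3 and -1.12 to 0.34 for Scd4, and with temperature Scd3 had -2.29 to -1.70 in WT and -3.01 to -2.23 in KO. In eWAT they were -0.070 to 0.049 for Scd1 between genotypes at TN, -0.41 to 1.67 for Scd4 with temperature in KO, and for the interaction -0.41 to 0.072 for Scd2 and -0.12 to 0.44 for Scd3. Between tissues they were 0.71 to 1.02 for Scd3 and 1.08 to 2.04 for Scd4 (BAT and liver) and -0.99 to -0.80 for Scd3 (BAT and eWAT). The difference in Scd2 share with temperature ranged from -0.00354 to 0.00255 percentage points in liver of WT, -0.418 to 0.261 in eWAT of WT and -0.153 to 0.373 in eWAT of KO. The log2 ratio of Scd3 to Scd1 ranged in BAT from -0.698 to 0.410 between genotypes at RT, -0.709 to 0.790 at TN and -1.48 to 0.243 with temperature in KO, and in eWAT from -0.704 to 0.0360 between genotypes at TN. With 2 in place of 0.5 added to each count, the ratio in BAT at TN differed by 0.061. DESeq2 called 203 genes against 15 by edgeR in liver between genotypes at RT, 1111 against 560 at TN, 75 against 4 and 362 against 20 with temperature in WT and KO. In BAT between genotypes at RT it called 981 against 16, and RLE scaling, the 1 CPM filter, library totals alone and the 8 libraries each gave 0. In eWAT DESeq2 called 1509 against 821, 675 against 111, 100 against 0 and 1154 against 330. Replicate numbers do not recur between groups of 1 tissue, so only fits over tissues could hold a replicate block. Of 35 same-numbered pairs, 1 had a correlation of deviations over 0.1, against 15 of 157 pairs with different numbers. These correlations cannot decide whether same-numbered samples came from 1 mouse, which is not given in the sources used here. With the replicate block, Scd4 between eWAT and liver was 2.83 (adjusted p 0.0514) and the F of Scd1 for the genotype effect at TN 6.19 (0.355), while genes called as differing among tissues numbered 55 against 451 and 42 against 198 between genotypes at RT and TN, and 1714 against 3292 and 312 against 889 with temperature in WT and KO.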
